A study of Homo sapiens with 24 samples.

Results

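The genes described here are the receptors and ligands of the epidermal growth factor receptor (EGFR) family: 4 receptors (EGFR, ERBB2, ERBB3 and ERBB4) and 6 ligands (HBEGF, AREG, EREG, TGFA, BTC and NRG1). They were chosen by name, as the rows of the count table whose Ensembl identifiers carry these symbols, and make up 10 of the 60675 identifiers in the table. All cells were MIA PaCa-2, a cell line from a human pancreatic carcinoma. C/EBPδ-inducible cells were a pool of 3 clones that express the cDNA of CEBPD, a transcription factor gene, from a Tet-On vector when doxycycline is given, and that carried the fluorophore mVenus. CTRL cells carried the same vector without the cDNA, with the fluorophore mCherry. Both lines were sequenced at 0, 8, 24 and 48 h of doxycycline, with 3 wells seeded in parallel per group, which gave 24 libraries. The labels list the doxycycline dose at 0 h too, whereas the study's methods describe those cells as untreated. EGFR was among the genes the study had picked from these same samples, so its direction here is not independent evidence.

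EGFR family receptors are tyrosine kinases of the cell surface that pair with one another when a ligand binds and then signal through RAS and ERK, PI3K and AKT, and STAT proteins. EGFR binds AREG, EREG, TGFA, BTC and HBEGF; ERBB2 has no known ligand of its own and serves as a partner; ERBB3 has little kinase activity and signals through its partners; and ERBB3 and ERBB4 bind NRG1. The ligands are made as membrane-anchored precursors that proteases such as ADAM17 release. In pancreatic carcinoma the pathway is known for acting upstream of RAS in tumour initiation and as a drug target.

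Each library held between 12731237 and 22598595 counts, so that 3 counts, taken as the detection floor, corresponded to 0.133 to 0.236 CPM (counts scaled to the size of the library). Levels below are CPM after TMM scaling, given as the mean and SD of 3 wells, and a gene was called at a false discovery rate (FDR) of 0.01 by the quasi-likelihood test of edgeR, adjusted after Benjamini-Hochberg over all genes tested. CEBPD itself checked the labels: it was at 3.94 ± 0.247 CPM in CTRL cells and 21.5 ± 2.35 CPM in inducible cells at 0 h, and at 249.1 ± 15.3, 307.0 ± 12.6 and 203.9 ± 7.15 CPM in inducible cells at 8, 24 and 48 h. In CTRL cells it was at 1.90 ± 0.534, 3.55 ± 0.129 and 4.02 ± 0.632 CPM at 8, 24 and 48 h. The CTRL change from 0 to 8 h was -1.02 on the log2 scale (SE 0.201, edgeR adjusted p = 0.0177) and was not called. Since the lines already differed in CEBPD at 0 h, leaky induction and differences between the clones and the CTRL cells cannot be told apart at that time. The keratins KRT8, KRT18 and KRT19 were detected in every library, but the summed level of 5 epithelial markers was 2065 to 2949 CPM in CTRL and 114 to 208 CPM in inducible libraries, and EPCAM and CDH1 had 0 counts in some libraries. CDH1 did not follow this sum: it was called lower in inducible than in CTRL cells at 0 h but higher at 8, 24 and 48 h, at up to 6.20 CPM. CDH1 had 0 to 85 counts per library and exceeded the floor of 3 counts in 20 of 24 libraries. Some of its calls therefore include libraries at or below the floor. EPCAM was not called between the lines at any time. The acinar and endocrine markers had at most 2 counts, of the leukocyte markers CD3E had 0 counts and CD68 10 to 38, and the summed endothelial markers were at 0 to 0.418 CPM in CTRL and 0.429 to 2.72 CPM in inducible libraries (fibroblast markers 0.394 to 1.99 and 1.57 to 4.92 CPM). The part of these marker differences in the results between lines was not tested. Within groups, some pairs of wells stood apart from the rest: wells 1 and 3 of CTRL cells at 8 h, well 3 of inducible cells at 8 h (also the library with the fewest counts) against both others, and wells 1 and 2 of CTRL cells at 48 h.

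Of the 10 genes, 6 were expressed at 2.50 CPM or more in every library (EGFR, ERBB2, HBEGF, AREG, EREG and BTC), and ERBB3 ranged from 1.74 to 10.6 CPM. NRG1 was at 1 to 29 counts and TGFA at 0 to 14 counts per library. ERBB4 had 6 counts in all 24 libraries together and stayed at or below the floor of 3 counts in each. EGFR, EREG and AREG were the genes called in the test that asks whether the change from 0 h differed between the lines, called the interaction below, and their promoters are shown for that reason. The sequences are RefSeq windows on GRCh38.p14, each of the 250 bases before an annotated transcription start, in the direction of the gene. EGFR lies on chr7:55019017-55211628 (plus strand) and its windows are the one at the gene's first base (chr7:55018767-55019016) and the one at a second RefSeq start 90822 bases further in, within the gene (chr7:55109589-55109838). EREG, at chr4:74365145-74388749 (window chr4:74364895-74365144), and AREG, at chr4:74445136-74455005 (window chr4:74444886-74445135), both on the plus strand, lie 56.4 kb apart, and BTC follows a further 290 kb on, at chr4:74744759-74794523 on the minus strand. Capitals mark matches, on either strand, to a C/EBP motif (TTNNGCAA), an AP-1 motif (TGANTCA), a cyclic AMP response element (TGACGTCA) or a TATA box (TATAAA).
EGFR first start: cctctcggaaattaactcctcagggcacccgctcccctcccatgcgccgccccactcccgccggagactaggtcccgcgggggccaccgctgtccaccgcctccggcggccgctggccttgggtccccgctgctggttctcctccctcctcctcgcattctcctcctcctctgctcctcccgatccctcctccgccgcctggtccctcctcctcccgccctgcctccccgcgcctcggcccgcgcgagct
EGFR second start: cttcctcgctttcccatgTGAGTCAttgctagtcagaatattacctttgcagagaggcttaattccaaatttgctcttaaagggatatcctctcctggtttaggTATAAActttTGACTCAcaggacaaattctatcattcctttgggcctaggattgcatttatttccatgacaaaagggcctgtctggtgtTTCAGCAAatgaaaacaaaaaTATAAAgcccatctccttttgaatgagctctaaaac
AREG: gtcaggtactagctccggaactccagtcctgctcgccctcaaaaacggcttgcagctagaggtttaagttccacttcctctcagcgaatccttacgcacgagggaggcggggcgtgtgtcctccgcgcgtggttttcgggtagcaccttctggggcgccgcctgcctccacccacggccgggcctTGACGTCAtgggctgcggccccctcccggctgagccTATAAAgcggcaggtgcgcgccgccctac
EREG: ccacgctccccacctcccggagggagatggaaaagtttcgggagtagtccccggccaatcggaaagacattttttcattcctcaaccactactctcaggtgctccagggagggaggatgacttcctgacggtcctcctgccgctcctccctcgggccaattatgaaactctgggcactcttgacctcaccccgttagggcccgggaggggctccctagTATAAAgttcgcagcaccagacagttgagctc

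The first EGFR window held none of these 4 motifs and was 73.6% G and C, with a GC box (GGGCGG, or CCGCCC on the other strand) at 2 places. The second EGFR window held a C/EBP match 57 to 50 bases before the start, AP-1 at 2 places and TATA at 2 places. The gene counts do not separate transcripts by start, so the use of either start was not tested. The AREG window held a cyclic AMP response element 65 to 58 bases and a TATA box 29 to 24 bases before the start, with a GC box on the other strand 9 to 4 bases before it, and the EREG window held a TATA box 32 to 27 bases before it and CCAAT at 2 places (CCAAT, or ATTGG on the other strand). No matches in these windows overlapped. Over all 35116 RefSeq windows of the same length, 9.05% held the C/EBP motif, 6.57% AP-1, 1.65% the cyclic AMP response element, 10.7% TATA, 42.6% a GC box and 32.0% CCAAT. A match is a run of letters and not a measured binding site.

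EGFR, the receptor for most of these ligands, started higher in inducible than in CTRL cells, stayed so at 8 h, and was lower from 24 h on in inducible cells. In CTRL cells, the 3 wells held 169.4, 175.4 and 172.0 CPM at 0 h, 177.4, 173.8 and 184.0 CPM at 8 h, 181.4, 192.4 and 186.7 CPM at 24 h, and 163.5, 164.0 and 162.0 CPM at 48 h. In inducible cells, they held 252.3, 257.6 and 252.5 CPM at 0 h, 231.9, 264.6 and 287.6 CPM at 8 h, 136.2, 132.4 and 137.3 CPM at 24 h, and 119.8, 135.3 and 156.7 CPM at 48 h. Every inducible well was above every CTRL well at 0 and 8 h and below every CTRL well at 24 and 48 h. Ordered by mean, the groups ran from inducible 8 h (261.4 ± 28.0 CPM) and 0 h (254.1 ± 3.00) through CTRL 24 h (186.8 ± 5.52), 8 h (178.4 ± 5.17), 0 h (172.3 ± 3.02) and 48 h (163.1 ± 1.04) to inducible 48 h (137.3 ± 18.5) and 24 h (135.3 ± 2.57). Of these neighbours, inducible 8 and 0 h, CTRL 24 and 8 h, CTRL 8 and 0 h, and inducible 48 and 24 h overlapped in their wells.

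In inducible cells, EGFR fell by 0.91 on the log2 scale from 0 to 24 h (SE 0.0319, edgeR adjusted p = 3.65e-16) and by 0.90 from 0 to 48 h (SE 0.0513, edgeR adjusted p = 1.24e-13), to 0.534 and 0.535 of its level at 0 h. At 8 h, when CEBPD mRNA was already at 249.1 CPM, the change was 0.036 (SE 0.0491, edgeR adjusted p = 0.602), and it took either sign when single wells were left out (-0.042 to 0.11). In CTRL cells, the changes were 0.076 at 8 h, 0.12 at 24 h and -0.083 at 48 h, and none was called (edgeR adjusted p = 0.426, 0.0254 and 0.133). The interaction was -1.02 at 24 h (SE 0.0450, edgeR adjusted p = 3.20e-14) and -0.83 at 48 h (SE 0.0859, edgeR adjusted p = 2.39e-06), against -0.019 at 8 h (SE 0.0818, edgeR adjusted p = 0.918). Between the lines, EGFR in inducible cells differed from CTRL cells by 0.55 at 0 h (SE 0.0304, edgeR adjusted p = 9.65e-12), 0.55 at 8 h (SE 0.0725, edgeR adjusted p = 8.94e-05) and -0.47 at 24 h (SE 0.0355, edgeR adjusted p = 1.71e-11). At 48 h the difference of -0.25 (SE 0.0742, edgeR adjusted p = 0.0120) was not called, although it was with DESeq2 (-0.25, adjusted p = 0.00440). This value depended on single wells: without well 3 of inducible cells at 48 h it was -0.35 (edgeR adjusted p = 0.000831) and without well 1 it was -0.17 (edgeR adjusted p = 0.0656). EGFR exons overlap those of the antisense gene EGFR-AS1 over 186 bases, and EGFR-AS1 had at most 5 counts in a library, against 2117 or more for EGFR.

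ERBB2, the partner receptor without a ligand, was lower in inducible than in CTRL cells at every time. In CTRL cells it was at 117.6 ± 3.66, 119.5 ± 9.52, 116.9 ± 1.09 and 152.3 ± 7.53 CPM at 0, 8, 24 and 48 h, and in inducible cells at 86.8 ± 1.23, 75.7 ± 8.04, 81.9 ± 2.47 and 99.7 ± 11.0 CPM. The wells of the lines did not overlap at any time, and the difference was -0.45, -0.66, -0.52 and -0.61 on the log2 scale at 0, 8, 24 and 48 h (SE 0.0357, 0.0815, 0.0374 and 0.0719), called at each (the largest edgeR adjusted p was 5.26e-05, at 8 h). Between 0 and 48 h ERBB2 rose by 0.37 in CTRL cells (SE 0.0506, edgeR adjusted p = 0.000101). In inducible cells it fell by 0.19 at 8 h (SE 0.0495, edgeR adjusted p = 0.00325) and rose by 0.19 at 48 h (SE 0.0526, edgeR adjusted p = 0.00443). The inducible 8 h call was lost in a model of all 24 libraries (adjusted p = 0.0370) and without well 1 of inducible cells at 0 h or well 2 or 3 at 8 h (without well 1 at 8 h the value was -0.30), and the 48 h call in that model (adjusted p = 0.0229), with DESeq2 (adjusted p = 0.103) and without any 1 of the wells at 0 h or well 1 at 48 h, which left a change of 0.095. No interaction was called for ERBB2 (-0.23, -0.068 and -0.19 at 8, 24 and 48 h, with edgeR adjusted p = 0.176, 0.493 and 0.176). ERBB2 shares 715 exonic bases with PGAP3 and MIEN1 on the other strand, and the strand setting of the counting is not given in the sources used here.

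ERBB3, the neuregulin receptor that signals through its partners, rose late in both lines. Its wells held 3.17 to 4.39 CPM at 0 h and 8.53 to 10.6 CPM at 48 h in CTRL cells, and 1.74 to 3.14 CPM and 6.28 to 7.39 CPM in inducible cells, with no overlap between the times in either line. The change from 0 to 48 h was 1.23 on the log2 scale in CTRL (SE 0.143, edgeR adjusted p = 2.71e-05) and 1.42 in inducible cells (SE 0.157, edgeR adjusted p = 3.16e-08), a 2.35-fold and a 2.67-fold rise. The interaction at 48 h was 0.18 (SE 0.232, edgeR adjusted p = 0.714). Between the lines, the difference of inducible from CTRL cells in ERBB3 was -0.66 at 0 h (SE 0.194, edgeR adjusted p = 0.00746) and -0.46 at 48 h (SE 0.117, edgeR adjusted p = 0.00495), on 31 to 181 counts per library. Both calls were lost with DESeq2 (adjusted p = 0.0210 and 0.0105), and the one at 0 h without well 1 or 3 of CTRL cells or well 2 or 3 of inducible cells (adjusted p up to 0.0451), the one at 48 h without well 2 of CTRL or well 1 or 3 of inducible cells (adjusted p up to 0.0258). ERBB4, the other neuregulin receptor, was at or below the floor in every library and was not tested.

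**Figure D1:**
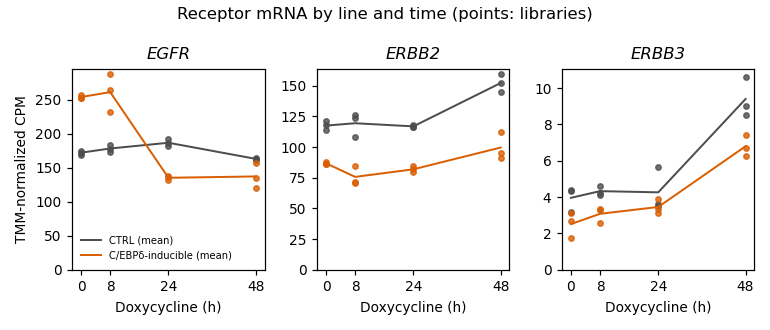
TMM-normalized CPM of EGFR, ERBB2 and ERBB3 (vertical axes, linear from 0) against hours of doxycycline, with 1 point per library and lines through the group means (dark, CTRL; orange, C/EBPδ-inducible). The EGFR means of the lines cross between 8 h (178.4 and 261.4 CPM) and 24 h (186.8 and 135.3 CPM), ERBB2 stays lower in inducible cells throughout, and ERBB3 is highest at 48 h in both lines.

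EREG, a ligand of EGFR and ERBB4, was lower in inducible than in CTRL cells at 0 h and higher afterwards. In CTRL cells the wells held 389.4, 344.6 and 368.9 CPM at 0 h, 294.8, 356.0 and 410.3 CPM at 8 h, 312.8, 303.2 and 294.2 CPM at 24 h, and 240.1, 312.4 and 285.3 CPM at 48 h. In inducible cells they held 312.3, 340.7 and 323.9 CPM at 0 h, 544.7, 571.9 and 529.8 CPM at 8 h, 377.1, 404.8 and 407.7 CPM at 24 h, and 382.1, 399.4 and 430.7 CPM at 48 h. All inducible wells were below all CTRL wells at 0 h and above all of them at 8, 24 and 48 h. In inducible cells, the rise from 0 h was 0.75 on the log2 scale at 8 h (SE 0.0327, edgeR adjusted p = 2.36e-13), 0.29 at 24 h (SE 0.0337, edgeR adjusted p = 4.74e-07) and 0.30 at 48 h (SE 0.0355, edgeR adjusted p = 1.01e-07), so that the 8 h level was 1.68 times that at 0 h. In CTRL cells, EREG fell by 0.27 at 24 h (SE 0.0367, edgeR adjusted p = 3.33e-05) and by 0.40 at 48 h (SE 0.0759, edgeR adjusted p = 0.00100). Of these, the 24 h calls were lost in a model of all 24 libraries (adjusted p = 0.0198 in inducible and 0.0505 in CTRL cells). EREG was called in the interaction at all 3 times, with 0.80 at 8 h (SE 0.116, edgeR adjusted p = 0.000795), 0.57 at 24 h (SE 0.0548, edgeR adjusted p = 5.44e-08) and 0.69 at 48 h (SE 0.0980, edgeR adjusted p = 8.46e-05). The 8 h value stayed between 0.69 and 0.92 with each library left out in turn, the wells that stood apart included, with adjusted p up to 0.00503. Between the lines, the difference was -0.18 at 0 h (SE 0.0380, edgeR adjusted p = 0.000397), which was lost in a model of all 24 libraries (adjusted p = 0.0942), and 0.63, 0.38 and 0.53 at 8, 24 and 48 h (SE 0.0947, 0.0328 and 0.0771), all called (the largest edgeR adjusted p was 0.000222, at 8 h).

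AREG, the EGFR ligand encoded next to EREG, was much lower in inducible than in CTRL cells at every time, and this gap narrowed with time. In CTRL cells the wells held 72.4, 71.5 and 71.9 CPM at 0 h, 70.8, 71.0 and 75.6 CPM at 8 h, 74.8, 76.6 and 71.1 CPM at 24 h, and 84.1, 93.2 and 92.7 CPM at 48 h. In inducible cells they held 23.6, 25.4 and 25.0 CPM at 0 h, 28.6, 29.6 and 28.5 CPM at 8 h, 32.4, 33.7 and 34.0 CPM at 24 h, and 43.9, 46.5 and 43.1 CPM at 48 h. The lines did not overlap at any time, and in inducible cells each time lay above the one before it in every well. The difference between the lines was -1.55, -1.33, -1.16 and -1.02 on the log2 scale at 0, 8, 24 and 48 h (SE 0.0471, 0.0623, 0.0452 and 0.0621), called at each (the largest edgeR adjusted p was 1.56e-08, at 8 h). In inducible cells AREG rose by 0.22 at 8 h (SE 0.0578, edgeR adjusted p = 0.00348), by 0.44 at 24 h (SE 0.0569, edgeR adjusted p = 2.30e-06) and by 0.84 at 48 h (SE 0.0550, edgeR adjusted p = 1.97e-12), and in CTRL cells by 0.32 at 48 h (SE 0.0540, edgeR adjusted p = 0.000478). The inducible 8 h call was lost with DESeq2 (adjusted p = 0.0220) and without well 1 or 3 of inducible cells at 0 h or well 1 or 2 at 8 h. The interaction was called at 24 h (0.40, SE 0.0632, edgeR adjusted p = 8.72e-05) and 48 h (0.51, SE 0.0743, edgeR adjusted p = 0.000115), and was 0.21 at 8 h (SE 0.0697, edgeR adjusted p = 0.0921).

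HBEGF, a heparin-binding ligand of EGFR and ERBB4, had its highest mean at 8 h in both lines and was lower in inducible cells throughout. In CTRL cells it was at 20.3 ± 0.511, 26.2 ± 0.702, 18.3 ± 0.570 and 12.8 ± 0.902 CPM at 0, 8, 24 and 48 h, and in inducible cells at 10.4 ± 0.382, 18.3 ± 1.37, 8.41 ± 0.609 and 7.97 ± 0.372 CPM. The wells of the lines did not overlap at any time, and the difference was -0.97, -0.52, -1.13 and -0.69 on the log2 scale (SE 0.0741, 0.0830, 0.0822 and 0.0980), called at each (the largest edgeR adjusted p was 0.000333, at 8 h). From 0 to 8 h HBEGF rose by 0.80 in inducible cells (SE 0.0842, edgeR adjusted p = 1.53e-07; 0.76 to 0.86 with single wells left out). In CTRL cells the value was 0.39 (SE 0.0712, edgeR adjusted p = 0.0120), which was not called here but was in a model of all 24 libraries (adjusted p = 0.000355), without a filter on low counts (adjusted p = 0.00462) and without well 1 or well 3 of CTRL cells at 8 h (adjusted p = 0.00653 and 0.00921). The interaction at 8 h was 0.43 (SE 0.102, edgeR adjusted p = 0.0215), called only in the model of all 24 libraries among the alternatives run (adjusted p = 0.00708). By 48 h HBEGF had fallen by 0.67 in CTRL (SE 0.0817, edgeR adjusted p = 4.07e-05) and by 0.40 in inducible cells (SE 0.0950, edgeR adjusted p = 0.000901).

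BTC, a ligand of EGFR and ERBB4 on the same arm of chromosome 4 as EREG and AREG, was also lower in inducible cells at each time. It was at 7.73 ± 1.14, 6.65 ± 1.27, 5.98 ± 0.282 and 7.09 ± 1.18 CPM in CTRL and at 2.55 ± 0.0435, 4.13 ± 0.625, 2.74 ± 0.226 and 3.65 ± 0.252 CPM in inducible cells at 0, 8, 24 and 48 h, on 44 to 161 counts per library. The difference between the lines was -1.61, -0.66, -1.14 and -0.95 on the log2 scale (SE 0.142, 0.169, 0.135 and 0.149; edgeR adjusted p = 1.09e-08, 0.00800, 6.99e-08 and 0.000127), and the call at 8 h was lost without well 2 or 3 of CTRL cells or any 1 well of inducible cells at 8 h (adjusted p up to 0.0395). In inducible cells BTC rose by 0.71 at 8 h (SE 0.162, edgeR adjusted p = 0.00125), which was lost without well 2 at 8 h (adjusted p = 0.0125), and by 0.51 at 48 h (SE 0.158, edgeR adjusted p = 0.00900), which was lost with each single well left out (adjusted p up to 0.0540). The interaction at 8 h was 0.94 (SE 0.232, edgeR adjusted p = 0.0276), and was called without a filter on low counts (adjusted p = 0.00126) and in a model of all 24 libraries (adjusted p = 0.00872). EREG, AREG and BTC lie within 429 kb, and in inducible cells at 8 h all 3 were called higher than at 0 h, with HBEGF on chromosome 5 as the only other member so called, where 15% of all genes tested were called higher. Of these, the AREG call was lost with DESeq2 and without any 1 of 4 wells, and the BTC call without 1 well, as given above. In the 8 h interaction, EREG was called, and AREG (0.21) and BTC (0.94) were not (edgeR adjusted p = 0.0921 and 0.0276). At 0 h the lines differed by unequal amounts along this stretch: EREG by -0.18, AREG by -1.55 and BTC by -1.61.

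NRG1, the neuregulin that binds ERBB3 and ERBB4, was at group means of 0.173 to 0.345 CPM in CTRL and 0.726 to 1.08 CPM in inducible cells. Its differences between the lines at 0 h (2.35 on the log2 scale, SE 0.389, edgeR adjusted p = 3.93e-05) and 24 h (2.02, SE 0.486, edgeR adjusted p = 0.000955) passed the filter on low counts only through the inducible group, so that a tested difference had to be an upward one. On so few counts its size depended on the scale: on log2(CPM + 1), limma gave 0.78 at 0 h and 0.55 at 24 h. The 24 h call was lost without well 3 of CTRL cells or well 3 of inducible cells (adjusted p = 0.0119 and 0.0191). TGFA, another EGFR ligand, had 0 to 14 counts per library and was not tested in any comparison. Its highest group mean was 0.732 ± 0.343 CPM, in inducible cells at 8 h, where its wells held 8, 13 and 14 counts, against 2, 8 and 7 counts in CTRL cells.

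**Figure D2:**
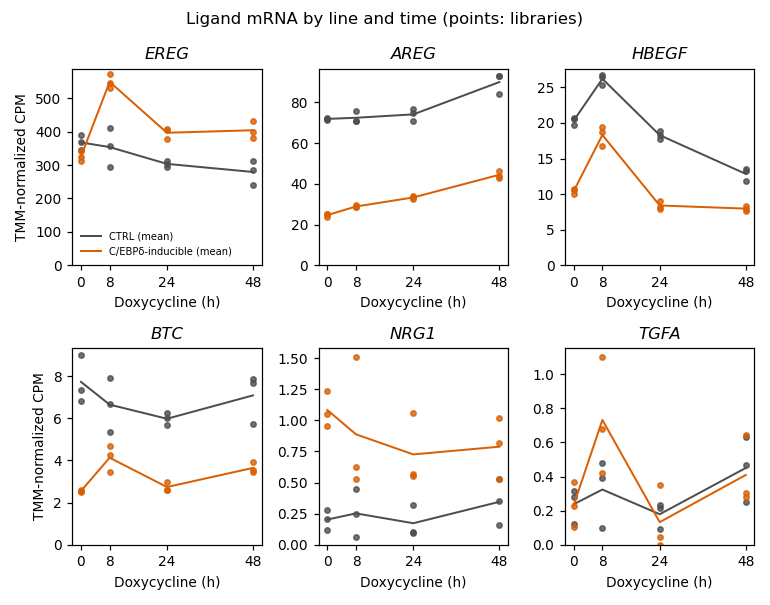
TMM-normalized CPM of the 6 ligands (vertical axes, linear from 0, each with its own scale) against hours of doxycycline, with 1 point per library and lines through the group means (dark, CTRL; orange, C/EBPδ-inducible). EREG is higher in inducible cells from 8 h on, AREG, HBEGF and BTC are lower in them at every time, and NRG1 and TGFA stay below 1.51 CPM.

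Counted over the family, more members were lower than higher in inducible cells at each time, and EGFR changed sides between 8 and 24 h. At 0 h, 8 members were tested; 2 were called higher, EGFR and NRG1, and 6 lower in inducible cells, where 43.9% of all genes tested were called (20% higher and 23.9% lower). NRG1 is among the higher ones at 0 h and at 24 h, and the filter on low counts fixed its direction at both. At 8 h, 2 were higher (14.3% of all genes tested) and 4 lower (17.4%) of 7 tested, with 31.8% of all genes called. At 24 h, 2 were higher (21.5% of all genes) and 5 lower (25.3%) of 8 tested, with 46.9% of all genes called, and at 48 h, 1 was higher (17.6%) and 5 were lower (20.7%) of 7 tested, with 38.3% called. In CTRL cells, edgeR called 0 of the 7 members tested at 8 h, where 1.7% of all genes were called (0.905% higher and 0.793% lower), and the one member at an unadjusted p under 0.05 was HBEGF, while DESeq2 called 0. At 24 h, 1 of 7 was called in CTRL cells, and it was lower, with 6.06% of all genes called (2.81% higher and 3.25% lower). At 48 h, 3 were higher and 2 lower of 7 in CTRL cells, with 30% of all genes called (15.2% higher and 14.7% lower). In inducible cells, 4 of 8 were higher and 1 lower at 8 h, with 30.5% of all genes called (15% higher and 15.5% lower). At 24 h, 2 were higher and 1 lower of 8 in inducible cells, with 15.5% of all genes called (7.33% higher and 8.14% lower), and at 48 h 5 were higher and 2 lower, with 38.7% called (19.1% higher and 19.5% lower). In the interaction at 8 h, 1 of 8 was called, EREG, which was higher, with 1.66% of all genes called (0.887% higher and 0.77% lower). In the interaction at 24 h, 2 were higher, EREG and AREG, and 1 lower, EGFR, with 5.84% of all genes called (2.86% higher and 2.98% lower), and the same genes were called at 48 h, with 5.54% of all genes called (2.83% higher and 2.72% lower). EGFR was negative and EREG and AREG positive in both of the later interactions. The comparisons of 8, 24 and 48 h share the wells at 0 h, so their values are set side by side and are not independent of one another.

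**Figure D3:**
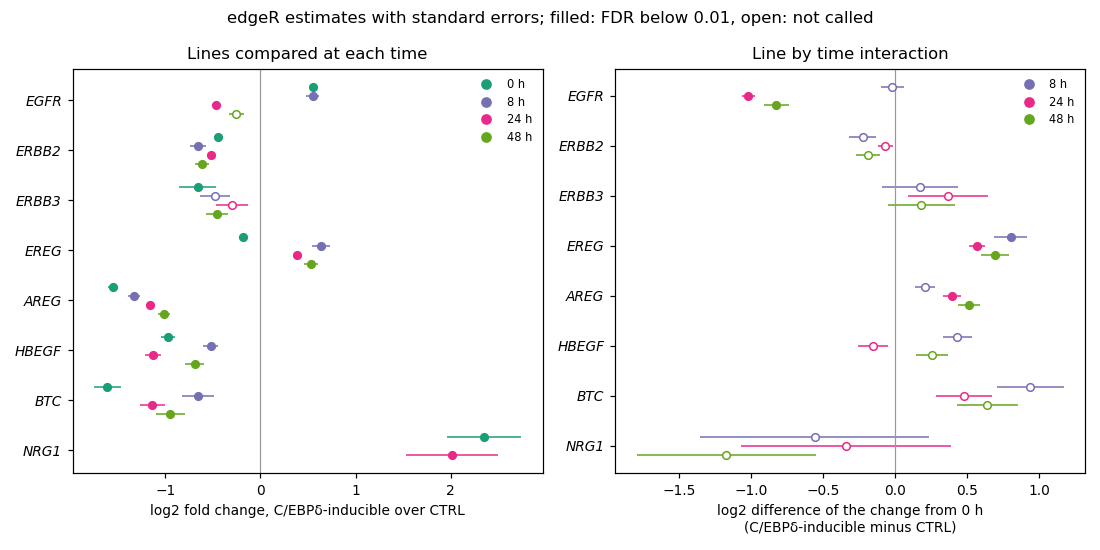
edgeR estimates on the log2 scale (horizontal axes) for the members tested, with bars of 1 standard error. On the left, C/EBPδ-inducible over CTRL cells at each time, and on the right, the difference between the lines in the change from 0 h; filled points were called at an FDR of 0.01 and colours give the time. EGFR and EREG are called on both sides of 0 between the lines, and the interaction points called are those of EGFR (negative), EREG and AREG (positive).

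Compared per length, as CPM per kilobase of merged exons, EGFR and ERBB2 made up nearly all receptor mRNA and EREG and AREG most ligand mRNA. In CTRL cells EGFR held 48.0 ± 1.31% of the receptors' summed per-length level at 0 h and 50.1 ± 1.00% at 24 h, and in inducible cells 64.9 ± 0.597% at 0 h, 68.2 ± 4.58% at 8 h and 50.8 ± 0.548% at 24 h. The ratio of EGFR to ERBB2 per length thus moved from 1.90 ± 0.0440 at 0 h to 1.07 ± 0.0199 at 24 h in inducible cells, against 0.950 ± 0.0465 and 1.03 ± 0.0347 in CTRL cells. At 48 h the ratio was 0.695 ± 0.0301 in CTRL and 0.907 ± 0.210 in inducible cells. EREG held 74.4 ± 0.340% of the ligands' summed per-length level in inducible cells at 0 h and 79.0 ± 0.577% at 8 h, against 54.5 ± 1.12% and 52.5 ± 3.45% in CTRL cells. The ratio of EREG to AREG per length was 3.79 ± 0.0680, 5.46 ± 0.109, 3.42 ± 0.0624 and 2.62 ± 0.224 in inducible cells at 0, 8, 24 and 48 h, and 1.47 ± 0.0802, 1.40 ± 0.186, 1.18 ± 0.0341 and 0.889 ± 0.0718 in CTRL cells. This ratio was lowest at 48 h in both lines, and AREG exceeded EREG per length only in CTRL cells at 48 h. Shares and ratios between genes depend on the merged exon lengths (5713 bases for EREG, 1642 for AREG, 15941 for EGFR and 10321 for ERBB2). Other lengths were not tried, so the side of 1 on which a ratio near 1 falls is not settled. HBEGF held 2.62 to 7.52% of the ligand pool by group, BTC 1.11 to 2.47%, TGFA at most 0.123% and NRG1 at most 0.0662%.

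**Figure D4:**
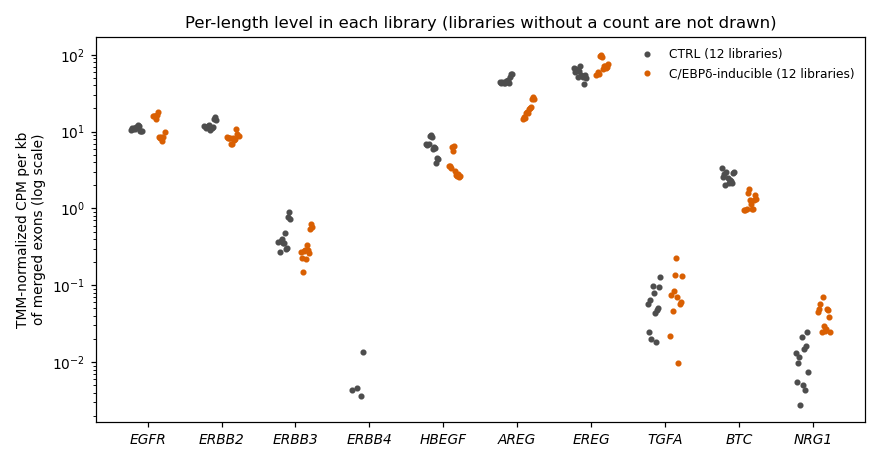
CPM per kilobase of merged exons (vertical axis, log scale) for each of the 10 genes, with 1 point per library (dark, 12 CTRL libraries; orange, 12 C/EBPδ-inducible libraries, by time from left to right within each colour); libraries without a count are not drawn. EREG lies above EGFR and ERBB2 (6.85 to 18) in every library, AREG lies above them in CTRL libraries and overlaps the range of EGFR in inducible ones, and ERBB4 shows points in CTRL libraries alone, on counts at or under the floor of 3.

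The rest of the pathway was read from 5 lists, of other ligands, of ligand shedding, of signal relay, of receptor inhibitors and of ERK outputs, by the interaction at 24 h, where 5.84% of all genes were called and the median log2 interaction of all genes was -0.00091. Among the other family ligands, 1 of 5 was tested, NRG2, a neuregulin at 0.301 to 1.78 CPM by group, with -0.94 at 24 h (SE 0.471, edgeR adjusted p = 0.255) and a called value of -1.94 at 48 h (SE 0.455, edgeR adjusted p = 0.00868). From 0 to 48 h, NRG2 rose by 1.64 in CTRL cells (SE 0.360, edgeR adjusted p = 0.00281), and its change in inducible cells was -0.30 (SE 0.247, edgeR adjusted p = 0.339). In CTRL cells at 8 and 24 h against 0 h, NRG2 did not pass the filter on low counts. At 48 h against 0 h it passed only through the 48 h wells (0.748 to 1.06 CPM, against 0.209 to 0.359 CPM at 0 h). A tested change there had to be a rise, and the interaction at 48 h includes this rise. EGF, NRG3 and NRG4 had at most 6 counts in a library and were not tested in any comparison, like the protease genes ADAM12 (1 count at most) and RHBDL2 (8 counts at most). Of 7 genes of ligand shedding and trafficking tested, 1 was higher and 1 lower (list median 0.12). ADAM17, the main sheddase of AREG, EREG, HBEGF and TGFA, was at 0.23 at 24 h (SE 0.0491, edgeR adjusted p = 0.00210), while the metalloprotease gene ADAM9 was at -0.29 at 24 h (SE 0.0438, edgeR adjusted p = 5.12e-05) and -0.37 at 48 h (SE 0.0664, edgeR adjusted p = 0.00105). ADAM17 was lower in inducible than in CTRL cells at 0 h (-0.23, SE 0.0365, edgeR adjusted p = 2.63e-05). At 24 h it was at 92.8 ± 1.47 CPM in inducible and 92.5 ± 1.83 CPM in CTRL cells. The ADAM17 interaction at 48 h was 0.11 (SE 0.0604, edgeR adjusted p = 0.289). CNIH4, a cargo receptor gene of the early secretory pathway, was called at 48 h (0.31, SE 0.0650, edgeR adjusted p = 0.00393).

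Of 28 adaptor and relay genes tested, 4 were higher and 3 lower in the interaction at 24 h, with a list median of -0.0039. STAT3, a transcription factor activated by EGFR and by cytokine receptors, went from 375.5 ± 9.37 CPM at 0 h to 231.4 ± 1.59 CPM at 24 h and 222.8 ± 8.81 CPM at 48 h in inducible cells, and from 489.7 ± 13.2 to 451.1 ± 4.86 and 474.0 ± 15.7 CPM in CTRL cells. Its interaction was -0.57 at 24 h (SE 0.0384, edgeR adjusted p = 1.01e-10) and -0.72 at 48 h (SE 0.0523, edgeR adjusted p = 3.10e-08), the same sign as that of EGFR, with 0.0036 at 8 h (edgeR adjusted p = 0.977). The adaptor gene CRKL was called at 24 h (0.25, SE 0.0404, edgeR adjusted p = 0.000128) and 48 h (0.41, SE 0.0467, edgeR adjusted p = 6.59e-06), the RAS exchange factor gene SOS2 at 8 h (0.70, SE 0.10, edgeR adjusted p = 0.000778) and 24 h (0.30, SE 0.0670, edgeR adjusted p = 0.00345), and the PI3K subunit gene PIK3CB at 24 h (-0.25, SE 0.0621, edgeR adjusted p = 0.00811). From 0 to 24 h PIK3CB changed by 0.19 in CTRL cells (SE 0.0471, edgeR adjusted p = 0.0117) and by -0.071 in inducible cells (SE 0.0422, edgeR adjusted p = 0.257). Neither change was called. PIK3R2 was not tested in any comparison (10 counts at most).

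Of 16 receptor inhibitor and turnover genes tested, 1 was called at 24 h, ERRFI1, which was higher, and the list median was 0.0093. ERRFI1 encodes a protein that binds and inhibits the EGFR kinase, and it was called in all 3 interactions: 0.32 at 8 h (SE 0.0444, edgeR adjusted p = 0.000543), 0.39 at 24 h (SE 0.0292, edgeR adjusted p = 6.88e-10) and 0.32 at 48 h (SE 0.0368, edgeR adjusted p = 9.06e-06). ERRFI1 was at 1224 ± 2.47, 1384 ± 9.24, 1423 ± 20.1 and 1500.0 ± 4.84 CPM in inducible cells at 0, 8, 24 and 48 h, against 1149 ± 8.05, 1033 ± 56.2, 1026 ± 22.0 and 1117 ± 29.7 CPM in CTRL cells. LRIG3 and CBLC were not tested in any comparison (6 and 4 counts at most). Of the 18 ERK feedback and early output genes, all tested, 4 were higher and 2 lower at 24 h (list median 0.057). In the 8 h interaction 2 of them were higher and 1 lower, where 0.887% of all genes were called higher and 0.77% lower, with a list median of 0.18 against -0.0079 over all genes. In the 48 h interaction 6 were higher and 1 lower, where 2.83% of all genes were called higher and 2.72% lower, with a list median of 0.079 against -0.010 over all genes. DUSP6, an ERK phosphatase gene, was called at 8, 24 and 48 h with 0.88, 0.97 and 0.87 (SE 0.101, 0.0984 and 0.141, edgeR adjusted p = 0.000122, 1.19e-07 and 0.000375). From 0 to 24 h DUSP6 changed by 0.47 in inducible cells (SE 0.0728, edgeR adjusted p = 2.64e-05) and by -0.50 in CTRL cells (SE 0.0619, edgeR adjusted p = 1.38e-05). EGR1, an immediate early gene, was called at the same times with 0.83, 0.89 and 1.24 (SE 0.0904, 0.0704 and 0.0954, edgeR adjusted p = 9.02e-05, 1.63e-09 and 6.46e-08). IER3, another early response gene, was called at 24 h (0.97, SE 0.132, edgeR adjusted p = 1.10e-05) and 48 h (1.36, SE 0.114, edgeR adjusted p = 1.66e-07). FOSL1, which encodes an AP-1 subunit, was called at 24 h with -0.58 (SE 0.0620, edgeR adjusted p = 3.22e-07) but not at 48 h (-0.13, SE 0.0765, edgeR adjusted p = 0.329). FOSL1 fell from 0 h in both lines, with -0.21 at 24 h and -1.12 at 48 h in CTRL cells. In inducible cells the values were -0.79 and -1.25, and all of these falls were called (the largest edgeR adjusted p was 0.000461). At 0 h, 12 of these 18 genes were already lower and 1 was higher in inducible than in CTRL cells, where 23.9% of all genes were called lower and 20% higher, with a list median of -0.34 against 0.0098 over all genes, and EGR1 stood at 32.9 ± 3.62 and 101.0 ± 2.98 CPM.

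**Figure D5:**
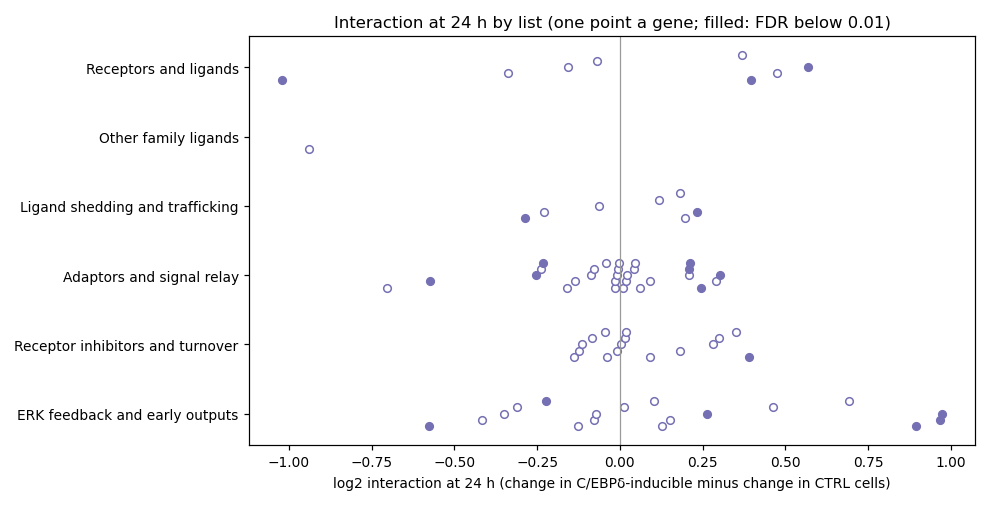
Log2 interaction at 24 h (horizontal axis, change from 0 h in C/EBPδ-inducible minus that in CTRL cells) for the 8 members tested and the genes of the 5 other lists, 1 point per gene and 1 row per list; filled points were called at an FDR of 0.01. EGFR, at -1.02, lies lowest, and DUSP6 (0.97), IER3 (0.97) and EGR1 (0.89) lie highest.

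By its pattern over the 24 libraries, EGFR was most like AXL (Pearson r = 0.93 of log2(CPM + 1) among 13711 genes), followed by MACF1 (0.92), ANTXR2 (0.89), TLR5 (0.89) and CD9 (0.86), and most opposite to SLC2A3 (-0.92), RBM47 (-0.90), GALNT2 (-0.88), FLOT2 (-0.87) and PRND (-0.87). AXL encodes another receptor tyrosine kinase and CD9 a tetraspanin. Like EGFR, AXL was among the genes the study had picked from these same samples, so its place here is not independent evidence. These points share the 8 groups and the same TMM scaling, so the coefficients describe a shared pattern across groups and carry no test. No other member of the family came near these values: the highest was HBEGF at 0.37 and the lowest ERBB3 at -0.56.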

How the data were processed

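RNA of 24 libraries of MIA PaCa-2 cells was measured after ribosomal RNA depletion. The authors trimmed the reads with Trimmomatic (version 0.36 in the submitters' processing notes), mapped them to GRCh38 with HISAT2 and summed them per gene with HTSeq. The deposited values are raw counts, not normalized, filtered or pooled. The strand setting is not given in the sources used here. Gene names, positions and exon lengths come from GENCODE on GRCh38, a later release than the authors used (56558 of 60675 identifiers matched).

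From the counts, TMM factors and quasi-likelihood tests were computed with edgeR 4.0.16 in R 4.3.3, with its filter on low counts and only the groups compared in each fit. The 13 comparisons were the lines at each of 4 times, each later time against 0 h in each line, and the line-by-time interactions. Tests were two-sided with a threshold of FDR 0.01. With 3 wells against 3, the smallest p of an exact permutation test is 0.1, so single genes rest on the fit across all genes, and p-values measure the spread between wells, which may be technical. Totals of 12731237 to 22598595 counts set the precision. The tests were also run on counts simulated for 3 of the 13 comparisons, all at 24 h. No result of that run is given here.

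All 10 members are named. Of 5 pathway lists, the text names genes called in an interaction (the 4 largest at 24 h per list) and those never tested, and of pattern likeness to EGFR the 5 genes with the highest and the lowest r among genes with a mean of at least 1 CPM. The members and lists were chosen with earlier results of these data known. The alternatives were DESeq2 1.42.0, RLE size factors, no filter on low counts, all 24 libraries in one model, a replicate block, limma 3.58.1 on log2(CPM + 1) and leaving out each library in turn. Promoters are RefSeq windows, which 8 of the 10 genes had, and all 10 windows read were identical to the genome given.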

Additional observations from a re-analysis of the deposited data

Results flagged for a closer look

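For 3 genes, the change from 0 h differed between C/EBPδ-inducible and CTRL cells in edgeR's interaction test. EGFR had an interaction of -1.02 at 24 h (adjusted p = 3.20e-14) and -0.83 at 48 h (adjusted p = 2.39e-06). EREG had 0.80 at 8 h (adjusted p = 0.000795), 0.57 at 24 h (adjusted p = 5.44e-08) and 0.69 at 48 h (adjusted p = 8.46e-05). AREG had 0.40 at 24 h (adjusted p = 8.72e-05) and 0.51 at 48 h (adjusted p = 0.000115). Each of these 7 calls was kept with each library left out in turn and under each of the 6 other alternatives run. Groups of 3 wells were too small for a test of outlying samples.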

How the results depend on the processing

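Of 99 member values, those that kept their direction and their side of the threshold numbered 99 with limma (which gave smaller differences for NRG1) and with RLE size factors, 96 with a replicate block, 93 with DESeq2, 93 without a filter on low counts and 87 with all 24 libraries in one model. A call changed in 26 combinations of a value and an alternative, and those not given above were EGFR between the lines at 48 h without the filter (adjusted p = 1.72e-05) and with all libraries (adjusted p = 0.00265), EGFR in CTRL cells at 24 h without the filter (adjusted p = 0.00644), ERBB3 between the lines at 48 h with all libraries (adjusted p = 0.0105), HBEGF in inducible cells at 24 h with all libraries (-0.31, adjusted p = 0.00575), BTC in inducible cells at 48 h with DESeq2, without the filter and with all libraries (adjusted p = 0.0596, 0.0108 and 0.0187), and those under the block below.

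Genes called in CTRL cells at 8 h (259) numbered 403 with DESeq2, 843 without the filter and 1229 with all libraries, and 92 to 774 with single libraries left out, the highest without well 1 at 8 h; members called there (0) were 1 without the filter, 1 with all libraries, and 0 to 1. In CTRL cells at 24 h, 582 genes were called with all libraries and 505 to 1104 with single libraries left out, the lowest without well 2 at 24 h, and members called (1) were 2 without the filter and 0 with all libraries. In inducible cells at 8 h, 3127 genes were called with all libraries, and 2 to 5 members with single libraries left out, the lowest without well 2 at 8 h. In the interaction, the 8 h count (269 genes, 1 member) was 936 genes and 2 members without the filter, 441 genes and 3 members with all libraries, and 131 to 1196 genes with single libraries left out, the highest without well 3 of CTRL cells at 8 h; the 24 h count (948 genes) was 603 with all libraries. The cause was not tested.

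No value that changed sign was called. ERBB2 in CTRL cells at 24 h was 0.0032 without the filter. With single libraries left out, the ranges were -0.15 to 0.073 for EREG and -0.0072 to 0.11 for ERBB2 in CTRL cells at 8 h, -0.028 to 0.011 for ERBB2 and -0.15 to 0.21 for ERBB3 in CTRL cells at 24 h, -0.042 to 0.11 for EGFR and -0.92 to 0.062 for NRG1 in inducible cells at 8 h, -0.019 to 0.35 for ERBB3, -0.084 to 0.061 for EGFR and -1.22 to 0.081 for NRG1 in the 8 h interaction, -0.72 to 0.45 for NRG1 in the 24 h and -0.0053 to 0.36 for ERBB3 in the 48 h interaction.

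Same-numbered wells were not paired by the labels, and the data were mixed: the mean correlation of their deviations from the group means was -0.11 to 0.13 over the comparisons, and in 2 of 10 comparisons every library correlated best with its own number. This held for 5 of 6 libraries in inducible cells at 8 and 48 h against 0 h, and for 2 and 4 between the lines at 0 and 48 h. It held for 0 of 6 between the lines at 24 h, in CTRL cells at 8 and 48 h, and in inducible cells at 24 h. Pairing within single comparisons was not tested further. With the replicate block, 87 genes were called in CTRL cells at 8 h and 162 in the 8 h interaction, ERBB3 between the lines at 0 h had an adjusted p of 0.0106, BTC in inducible cells at 48 h 0.0103 and EGFR between the lines at 48 h 0.00172. The block changed no other member call. Depth limits ERBB4, TGFA and NRG1, whose libraries held at most 3, 14 and 29 counts.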
